A study of Mus musculus with 13 samples.

Results

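Mouse oocytes stop in prophase of meiosis I as fully grown germinal vesicle (GV) oocytes and stop again at metaphase II (MII) after the ovulatory signal. The first arrest depends on cAMP: the receptors Gpr3 and Gpr12 signal through Gs to the adenylyl cyclase Adcy3, protein kinase A (PKA) keeps the oocyte in arrest, and the phosphodiesterase Pde3a breaks cAMP down once it is released from inhibition. That inhibitor is cGMP, which the natriuretic peptide receptor Npr2 makes in granulosa and cumulus cells and which enters the oocyte through gap junctions that the oocyte builds from connexin 37, the product of Gja4. The receptor tyrosine kinase Kit, on the oocyte surface, binds KIT ligand from granulosa cells.

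The 10 genes described here are Gja4, Gpr3, Gpr12, Adcy3, Pde3a, Prkaca, Prkar1a, Prkar2b, Npr2 and Kit, chosen by name from the 22442 genes listed in the Ribo-seq files, where Ensembl identifiers were matched to symbols. All 10 are also among the 21898 genes of the acRIP-seq files. Ribo-seq counts the RNA fragments that ribosomes protect from RNase I (RPFs) on the coding sequence, so a count depends on both the amount of an mRNA and its translation. There were 3 WT GV, 3 Nat10-ZcKO GV, 2 WT MII and 3 Nat10-ZcKO MII libraries. Nat10 encodes an RNA cytidine acetyltransferase, and per the study's methods Nat10-ZcKO oocytes lose it through Zp3-Cre, which acts in oocytes from the primary follicle on and not in granulosa cells. The labels also speak of tamoxifen, given on 3 days, for the knockout samples, and how that fits with Zp3-Cre is not given in the sources used here. The labels and methods describe pooled oocytes from hormone-primed females, and the labels do not tie a library to an animal, so p-values measure the spread between these samples, which may be technical. In such pools, a lower count can come from fewer cells of a type or from less RNA per cell, and these cannot be told apart. One anti-ac4C and 1 anti-IgG acRIP-seq library, which recover mRNA fragments that carry N4-acetylcytidine or bind nonspecifically, came from WT GV oocytes. The study's methods give the C57BL/6J background for all mice, so for the Ribo-seq groups as well.

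Depth and makeup set 3 libraries apart. Total counts ran from 42360 to 279464 in 10 Ribo-seq libraries, but WT MII replicate 2 held 4815 counts on 523 genes, of which 207 had a single count. The 12 oocyte markers (such as Zp3 and Gdf9) held 6.28% to 8.71% of WT GV counts, 12.5% of those of Nat10-ZcKO GV replicate 3 and 1.20% to 1.46% of the counts of the 4 other MII libraries, but 0.0208% in WT MII replicate 2, 0.0212% in Nat10-ZcKO GV replicate 1 and 1.63% in Nat10-ZcKO GV replicate 2. In Nat10-ZcKO GV replicate 1, 8 of these 12 markers were at 0, Gdf9 and Bmp15 among them, and in WT MII replicate 2, 11 of 12 were at 0, which goes against the label oocyte. Adipocyte markers (16 genes) held 1.30% and 0.300% of the counts of Nat10-ZcKO GV replicates 1 and 2 and 0% to 0.0351% elsewhere. Nat10 itself had 1 to 11 counts in WT libraries and 1 to 6 in Nat10-ZcKO libraries, with overlapping ranges, and a count over the whole coding sequence does not single out the deleted part, so the genotype is used here as labelled.

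The counts below fall on these coding sequences. The first 60 coding bases are shown for 4 of the genes on which the results turn, read from the GENCODE M21 transcripts on GRCm38 with the start codon in capitals: Kit for stage and acRIP-seq, Npr2 for its absence at MII, and both PKA regulatory subunits because their ratio is compared.
Kit: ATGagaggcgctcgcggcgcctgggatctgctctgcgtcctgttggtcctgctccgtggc
Npr2: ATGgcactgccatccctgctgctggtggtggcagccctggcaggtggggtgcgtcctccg
Prkar1a: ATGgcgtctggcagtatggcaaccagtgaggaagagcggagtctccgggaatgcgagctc
Prkar2b: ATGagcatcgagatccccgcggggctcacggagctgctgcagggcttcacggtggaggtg

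In WT GV oocytes, 4 of the 10 genes stood highest in footprint density, that is, once counts were divided by coding length. On this scale (TPM) Gja4 stood at 294 ± 36.6, Kit at 264 ± 88.5, Prkar1a at 250 ± 64.9 and Prkar2b at 178 ± 67.6 (SD, n = 3 each). The ranges of neighbours in this order overlapped, from 255 to 328 TPM for Gja4, 200 to 365 for Kit, 175 to 294 for Prkar1a and 113 to 248 for Prkar2b. Pde3a (51.2 to 61.6 TPM) and Prkaca, the PKA catalytic subunit (37.9 to 57.2 TPM), overlapped each other and lay below these 4 in every WT GV library. Npr2 (16.4 to 25.3 TPM) and Gpr3 (8.88 to 27.4 TPM) came next and overlapped, followed by Adcy3 at 0 to 7.90 TPM. Gpr12 had no count in any library. Without the division by length Kit stood first in WT GV, with a mean of 600 CPM against 227 for Gja4 and 223 for Prkar1a.

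**Figure D1:**
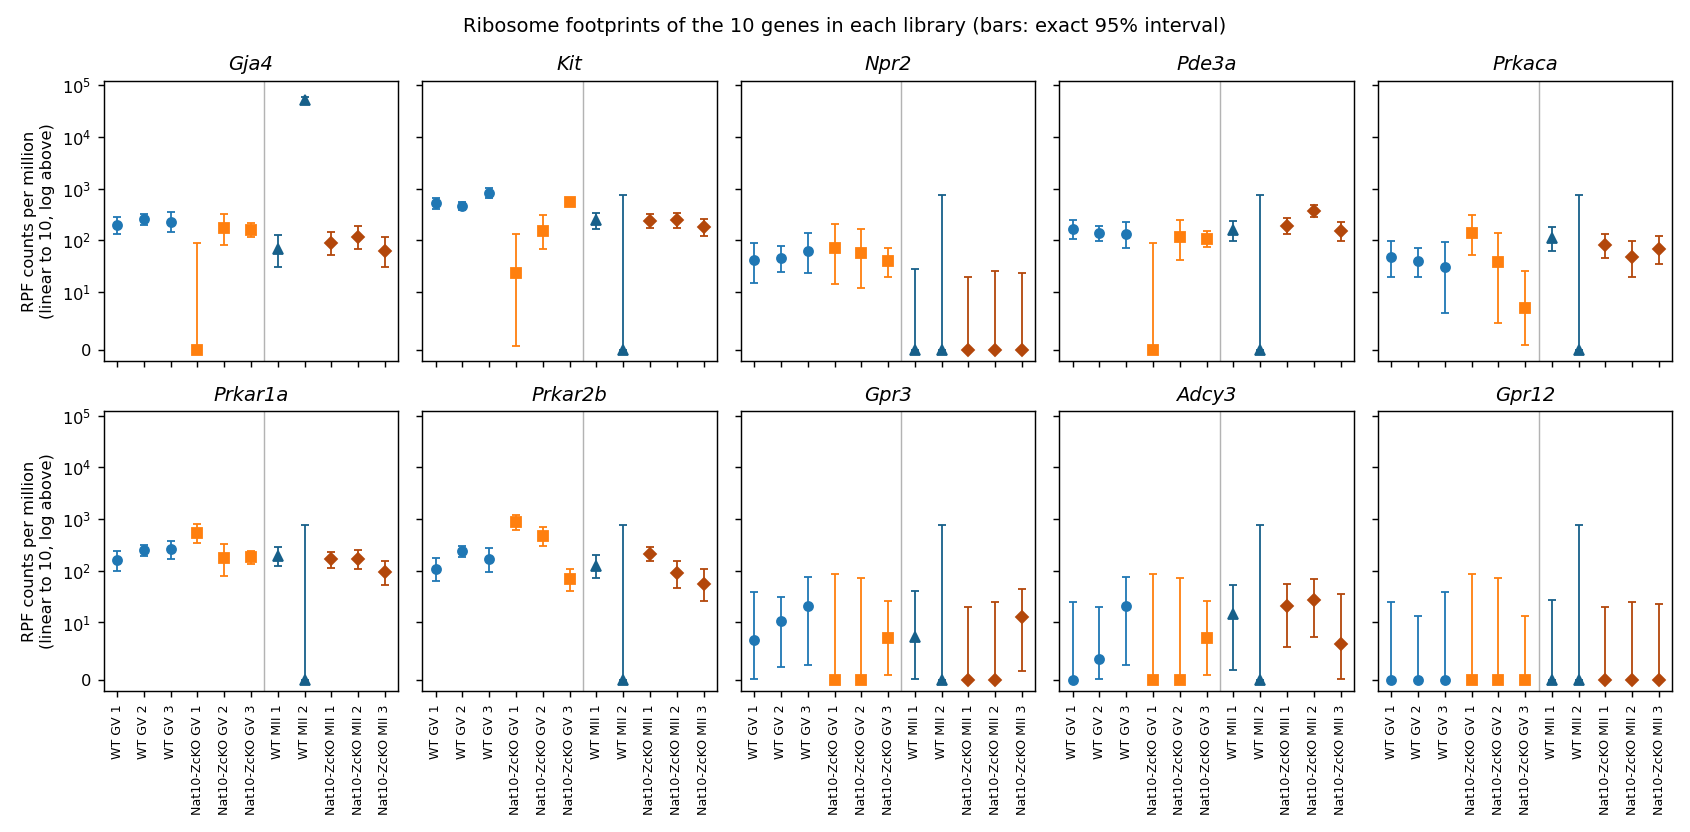
RPF counts scaled to the library total (CPM) on each gene in each of the 11 Ribo-seq libraries, with exact 95% intervals; the y axis is linear to 10 and logarithmic above, and the grey line divides GV from MII. Gja4 stands at 52752 CPM in WT MII replicate 2 against at most 254 CPM elsewhere, Npr2 is at 0 in all 5 MII libraries, and the other 9 genes are at 0 in WT MII replicate 2.

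Gja4 (ENSMUSG00000050234.7) lies on the minus strand of chromosome 4 of GRCm38, from 127311421 to 127314039, and its whole coding sequence of 999 bases sits in 1 exon, from 127311970 to 127312968. The 3 WT GV libraries held 29, 71 and 22 Gja4 counts, against 0, 9 and 44 for Nat10-ZcKO GV. At MII, 9 and 254 Gja4 counts were found for WT, against 17, 17 and 10 for Nat10-ZcKO. All but 1 of the values were 71 or lower, and the exception came from the library with the smallest total.

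In WT MII replicate 2, the 254 Gja4 counts were 5.28% of the library (exact 95% interval 4.66% to 5.94%, which covers counting error only), and no gene had more. In the other 10 libraries Gja4 held 0% to 0.0254% of counts and ranked no higher than 480 among the genes. At the share found in WT MII replicate 1, 0.321 Gja4 counts would have fallen in a library of 4815 counts, and the CPM ratio of replicate 2 over replicate 1 was 790 (exact 95% interval 410 to 1748). Without the largest other gene in the denominator the share was 5.55%. The remaining 9 genes had no count in WT MII replicate 2, where 4.11 counts would have fallen at the shares of replicate 1, and each 0 allows up to 623 CPM.

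Gja4 was not alone in this library. The next genes by counts were A930002H24Rik with 239, Lmx1b, a LIM homeodomain transcription factor, with 138, Kcnh2, a potassium channel, with 118, and Ncapd2, a condensin subunit, with 116. Lmx1b had no count in the other 10 libraries, while Kcnh2 and Ncapd2 had counts in all 10, at most 30 and 79. In all, 14 genes with 50 or more counts made up 30.8% of the library, and 3 of these had 10 or fewer counts in every other library, 2 of them none. Of the 12 oocyte markers only Oosp1 was seen there, with 1 count, and granulosa and cumulus, endothelial and adipocyte markers were all at 0 (15, 12 and 16 genes). The libraries were amplified by PCR without molecular identifiers and the files hold 1 count per gene, so whether the 254 counts came from separate RNA molecules was not tested.

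**Figure D2:**
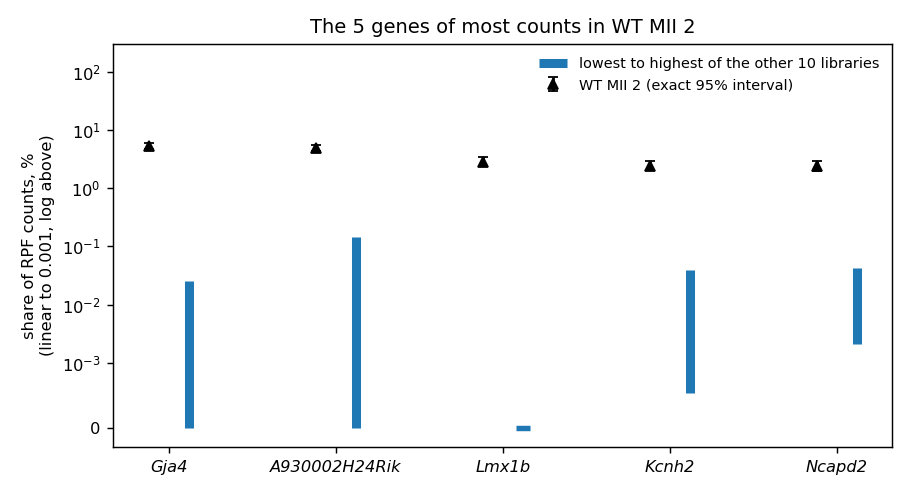
Share of RPF counts, in percent, of the 5 genes with most counts in WT MII replicate 2 (black, with exact 95% interval) beside the lowest to highest share in the other 10 libraries (blue); the y axis is linear to 0.001 and logarithmic above. Gja4 holds 5.28% there and at most 0.0254% elsewhere, and Lmx1b is at 0 in all 10 other libraries.

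Between genotypes at MII, edgeR's quasi-likelihood test (Benjamini-Hochberg adjustment) tested 2097 genes and called 4, or 0.191%, all lower in Nat10-ZcKO. Of the 10 genes, 6 passed the filter on low counts and none was called. Gja4 had a log2 change (Nat10-ZcKO minus WT) of -6.98 ± 2.38 (SE) with an edgeR adjusted p of 0.443, and this value rested on WT MII replicate 2: without it the log2 change was 0.32, with an edgeR adjusted p of 0.9998. With WT MII replicate 2 kept, DESeq2 put Gja4 at -7.50 (adjusted p = 0.000668), edgeR without TMM at -9.05 (adjusted p = 0.00286) and edgeR with a filter of at least 10 counts in 3 libraries at -8.20 (adjusted p = 0.0175). These fits called 0.715%, 2.10% and 0.864% of all genes tested. DESeq2 gave no adjusted p for some genes, Pde3a, Prkaca, Prkar1a, Prkar2b and Kit among them. Its share is over all 2097 genes, those included. One WT library, at 66.7 CPM, lay within the Nat10-ZcKO range of 62.6 to 116 CPM, and the other, at 52752 CPM, above it.

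The other tested genes had MII log2 changes of 0.79 ± 0.99 for Pde3a, -0.65 ± 0.90 for Prkaca, -0.25 ± 0.90 for Prkar1a, 0.0026 ± 1.41 for Prkar2b and 0.10 ± 0.95 for Kit (SE; edgeR adjusted p from 0.997 to 0.999; the median over all genes tested was 0.37). Leaving out WT MII replicate 1 left only the library of 4815 counts on the WT side, where these 5 genes are at 0. Then 1451 of 2809 genes (51.7%) were called, Pde3a, Prkar1a, Prkar2b and Kit among them with log2 changes of 7.98, 7.24, 6.96 and 7.88, and Gja4 with -6.50. That fit takes the lone WT library to vary as the Nat10-ZcKO libraries do.

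Between genotypes at GV, no gene of 1765 was called by edgeR, or 0.00%, while 93 had an unadjusted p under 0.05 and DESeq2 called 3. Of the 10 genes, 5 were tested. Gja4 stood at 199, 254 and 229 CPM in WT and at 0, 174 and 159 CPM in Nat10-ZcKO, and the groups did not overlap. Pde3a, on the plus strand of chromosome 6 (141249269 to 141507448), likewise stood at 165, 136 and 135 CPM in WT and at 0, 116 and 108 CPM in Nat10-ZcKO. Over all genes tested, the groups did not overlap for 16.0%. The log2 changes were -0.73 ± 0.78 for Gja4 and -0.62 ± 0.71 for Pde3a (SE, n = 3 against 3, edgeR adjusted p = 0.908 for each). Without Nat10-ZcKO GV replicates 1 and 2 they were -0.33 and -0.23, with 1 Nat10-ZcKO library left.

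Kit, on the plus strand of chromosome 5 (75574916 to 75656722), gave 76, 127 and 79 counts for WT GV oocytes, against 1, 8 and 154 for Nat10-ZcKO GV. In CPM the Nat10-ZcKO GV libraries stood at 23.6, 155 and 556, and the WT GV libraries at 522, 454 and 822. The third Nat10-ZcKO library thus lay within the WT range, and the other two lay below it. Kit's log2 change was -0.99 ± 0.87 (SE, edgeR adjusted p = 0.908), 0.12 without Nat10-ZcKO GV replicates 1 and 2, and -2.68 (edgeR adjusted p = 0.0391) without replicate 3, a fit that called 380 of 1858 genes (20.5%). Leaving out replicate 3 leaves on the Nat10-ZcKO side only the libraries in which oocyte markers held 0.0212% and 1.63% of counts. The part of that low oocyte share in the Kit values was not tested.

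PKA is a complex of catalytic subunits, here Prkaca (chromosome 8, 83972993 to 83996443, plus strand), held inactive by regulatory subunits, here Prkar1a (RI alpha) and Prkar2b (RII beta, an isoform abundant in brain and adipose tissue). Prkar1a lies on chromosome 11 (109649405 to 109669656, plus strand) and Prkar2b on chromosome 12 (31958476 to 32061296, minus strand). Prkar2b counts were 16, 67 and 16 for WT GV and 37, 24 and 19 for Nat10-ZcKO GV, or 110, 240 and 166 CPM against 873, 464 and 68.6 CPM. The first and second Nat10-ZcKO libraries lay above all WT GV libraries and the third below them. Its log2 change was 1.51 ± 0.83 (SE, edgeR adjusted p = 0.908), -1.17 without Nat10-ZcKO GV replicates 1 and 2, and 1.82 (edgeR adjusted p = 0.0403) without replicate 3, again beside 20.5% of all genes. Prkar1a, at 23, 70 and 25 counts in WT GV and 23, 9 and 50 in Nat10-ZcKO GV, had a log2 change of 0.50 ± 0.61, which was -0.10 without Nat10-ZcKO GV replicates 1 and 2.

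Set against Prkar1a, Prkar2b made up 41.0%, 48.9% and 39.0% of the summed counts of the pair in WT GV. It made up 61.7% (exact 95% interval 48.2% to 73.9%), 72.7% (54.5% to 86.7%) and 27.5% (17.5% to 39.6%) in Nat10-ZcKO GV. In the 4 MII libraries that had counts it made up 34.2% to 56.3%. The 56.3% was in Nat10-ZcKO MII replicate 1 (44.0% to 68.1%), where adipocyte markers held 0.0266% of counts. Both highest shares came from the libraries in which the summed adipocyte markers were highest. Their order differed: replicate 1 held 1.30% of counts on these markers and had a share of 61.7%, replicate 2 held 0.300% and had 72.7%. Fabp4, a fatty acid carrier of adipocytes, had 131 and 29 counts there against 0 or 1 elsewhere. Adipoq, the adiponectin gene, had 1 and 1 against 0. Of the 16 adipocyte markers, 15 had a count in Nat10-ZcKO GV replicate 1, 11 in replicate 2 and 5 to 11 in the other libraries apart from WT MII replicate 2. Their part in the Prkar2b values was not tested.

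**Figure D3:**
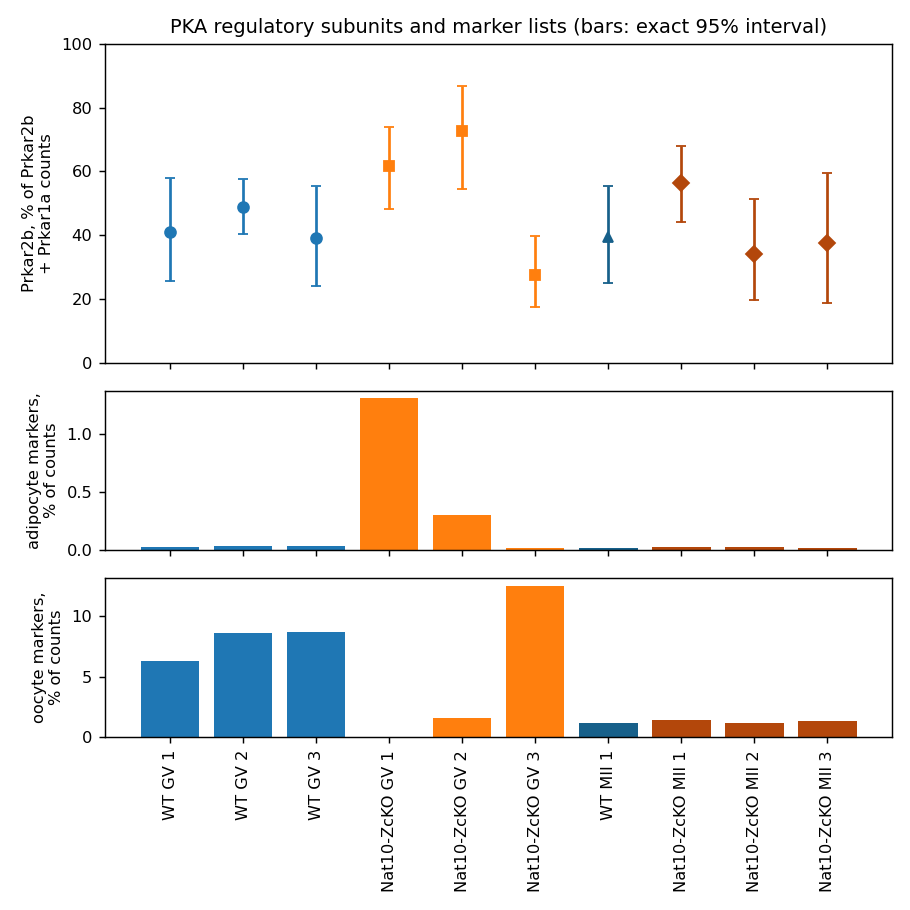
Top, Prkar2b as a percent of the Prkar2b and Prkar1a counts in each library with a count, with exact 95% intervals; below, the percent of all counts on 16 adipocyte and 12 oocyte markers, as bars from 0. The shares of 61.7% and 72.7% are in Nat10-ZcKO GV replicates 1 and 2, where adipocyte markers reach 1.30% and 0.300% and oocyte markers 0.0212% and 1.63%.

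Prkaca counts were 7, 11 and 3 for WT GV, 6, 2 and 2 for Nat10-ZcKO GV, 15 and 0 for WT MII and 15, 7 and 11 for Nat10-ZcKO MII. In length-scaled units it made up 3.08% to 16.6% of the summed TPM of Prkaca, Prkar1a and Prkar2b in the 6 GV libraries and 16.9% to 33.6% in the 4 MII libraries with counts. Single counts decide where these ranges meet.

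From GV to MII across both genotypes, edgeR tested 2991 genes over all 11 libraries and called 993 (33.2%), 358 higher and 635 lower at MII, with a median log2 change of -0.51 over all genes tested. Of the 10 genes, 6 were tested and none was called, with log2 changes of 1.74 ± 1.18 for Gja4, 0.58 ± 0.75 for Pde3a, 0.69 ± 0.70 for Prkaca, -0.93 ± 0.75 for Prkar1a, -1.51 ± 0.77 for Prkar2b and -1.10 ± 0.89 for Kit (SE; edgeR adjusted p from 0.113 to 0.558). Scaling by library size alone put that median at -0.42, and DESeq2 put it at -0.86. DESeq2 called 1802 of the same 2991 genes (60.2%), and 3 of the 6: Prkar1a (-1.27, adjusted p = 0.00340), Prkar2b (-1.89, adjusted p = 0.00382) and Kit (-1.53, adjusted p = 0.0402), all lower at MII.

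Without WT MII replicate 2 and Nat10-ZcKO GV replicates 1 and 2, which leaves 4 GV libraries (3 WT and 1 Nat10-ZcKO) and 4 MII libraries (1 WT and 3 Nat10-ZcKO), edgeR called 1989 of 3094 genes (64.3%), 941 higher and 1048 lower, and 3 of the 6 tested genes were among them. This is near the share over all genes tested, whose median log2 change was -0.14. Stage and genotype largely coincide in these 8 libraries: the log2 changes have genotype as a covariate, but the CPM ranges do not take it into account. Kit was lower at MII in every library, at 454 to 822 CPM in GV and 182 to 245 CPM in MII, with a log2 change of -1.47 ± 0.29 (SE, edgeR adjusted p = 0.000144). Gja4 was lower as well, at 159 to 254 CPM in GV and 62.6 to 116 CPM in MII, with a log2 change of -1.42 ± 0.38 (edgeR adjusted p = 0.00269). The GV and MII ranges of these 2 genes did not overlap, which held for 57.8% of all genes tested. Prkaca was higher at MII by 1.90 ± 0.61 on the log2 scale (edgeR adjusted p = 0.00982), with the highest GV library at 48.1 CPM and the lowest MII library at 47.7 CPM.

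The remaining tested genes did not pass in these 8 libraries. Pde3a had a log2 change of 0.47 ± 0.39 (edgeR adjusted p = 0.303), with 108 to 165 CPM in GV and 150 to 375 CPM in MII. Prkar1a had -0.45 ± 0.33 (edgeR adjusted p = 0.237) and Prkar2b -0.02 ± 0.47 (edgeR adjusted p = 0.979). The stage change of Gja4 turned direction with the libraries used: it was 1.74 over all 11 libraries, -0.71 without WT MII replicate 2 alone, and -1.42 in the 8 libraries. Whether the genotype difference of the 6 tested genes differed between stages was tested as an interaction over the 11 libraries, and none passed (edgeR adjusted p from 0.789 to 0.976), beside 31 of 3863 genes (0.802%) over all tested.

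**Figure D4:**
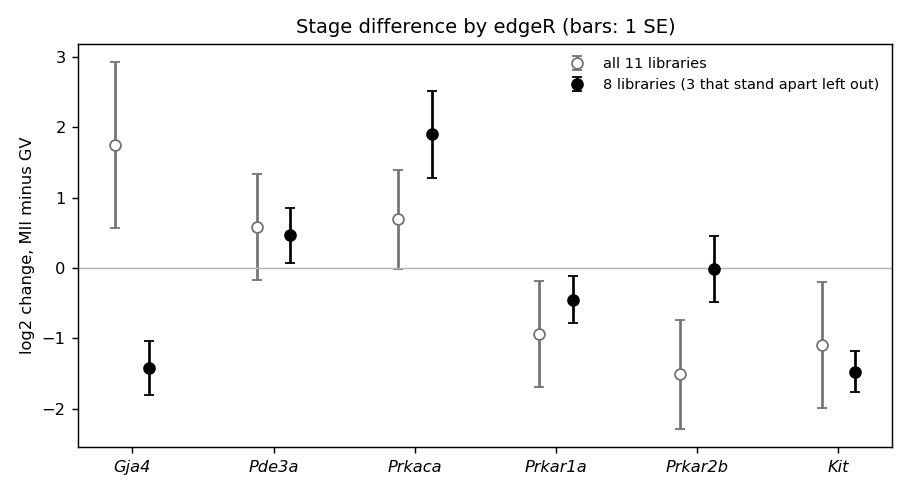
log2 change from GV to MII (edgeR, bars are 1 SE) of the 6 tested genes, over all 11 libraries (open) and over 8 libraries, leaving out WT MII replicate 2 and Nat10-ZcKO GV replicates 1 and 2 (filled). Gja4 moves from 1.74 to -1.42 and Kit stays below 0, at -1.10 and -1.47.

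Npr2, on the plus strand of chromosome 4 from 43631935 to 43651244, was seen only in GV libraries. WT GV oocytes gave 6, 13 and 6 counts, Nat10-ZcKO GV oocytes 3, 3 and 11, and all 5 MII libraries 0. In CPM the GV libraries lay between 39.7 and 70.8, and the 2 genotypes overlapped. Over the pooled libraries, GV held 42 of 892263 counts, which is 9.95-fold above a limit of 3 counts in 634047 MII counts. Without the 3 libraries that stand apart the fold was 9.46. Within WT it was 2.23, where the MII total is smaller, and within Nat10-ZcKO it was 7.55. These folds take the GV level as counted. They leave out its counting error and the spread between libraries, so the MII level may lie less far below. Npr2 did not reach the count filter of the 3 edgeR fits, so it has no test there.

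A count in each of the 6 GV libraries and in none of the 5 MII libraries was found for 5 genes, or 0.116%, of the 4329 genes with at least as many counts as Npr2. The other 4, Itih5, Mycl, Rfc3 and Gnl3, are named after their values were seen, as the pattern itself was. The cut is the total of Npr2 itself, and these 5 genes had 42 to 68 counts. The share is thus not that of genes with like counts. The pattern also asks for a count in Nat10-ZcKO GV replicate 1, where oocyte markers held 0.0212% of counts. Because Npr2 is a gene of granulosa and cumulus cells, markers of these cells are given beside it. The 15 markers summed to 0.256% to 1.04% of counts in the GV libraries and to 0.185% to 0.504% in the 4 MII libraries with counts, so the list as a whole was present at both stages. Its members differed in counts pooled by stage, from totals of 892263 in GV and 634047 in MII. Amh, made by granulosa cells of growing follicles, had 372 counts in GV and 7 in MII libraries. Inhbb, an inhibin and activin subunit, had 390 and 32. Inha, Inhba, Foxl2, Hsd17b1, Nr5a2 and Fshr were also lower in MII once scaled to these totals. The cumulus expansion genes Ptx3 (2 and 695), Tnfaip6 (0 and 236) and Ptgs2 (3 and 99) were higher in MII. So were Has2 (1 and 3), Fst (99.7 and 183 CPM) and Cyp19a1 (57.2 and 74.1 CPM). Cyp11a1 stood at 224 CPM in GV and 186 CPM in MII. The granulosa cell genes thus did not all fall as Npr2 did. The study's methods name hyaluronidase digestion of cumulus-oocyte complexes for superovulated oocytes. Its Ribo-seq methods do not name this step. The part of follicle cells in the Npr2 values was not tested.

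The upstream members were near the limit of detection. Gpr3 (chromosome 4, 133209340 to 133212536, minus strand), the main constitutive Gs-coupled receptor of the mouse oocyte, gave 1, 3 and 2 counts for WT GV, 0, 0 and 2 for Nat10-ZcKO GV, 1 and 0 for WT MII and 0, 0 and 2 for Nat10-ZcKO MII, 11 in all. Adcy3 (chromosome 12, 4133103 to 4213525, plus strand) had 0, 1 and 2 counts, then 0, 0 and 2, then 2 and 0, then 4, 4 and 1 in the same order, 16 in all, and its coding exons share bases with Cenpo, so reads there are uncertain. Gpr12 (chromosome 5, 146582398 to 146585239, minus strand), with 0 of 1521495 counts outside WT MII replicate 2, is limited to at most 1.97 CPM by 3 counts. Pooled by stage, Adcy3 held 5 of 892263 counts at GV and 11 of 634047 at MII (5.60 and 17.3 CPM). None of these 3 genes reached the count filter, so none was tested.

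The wider pathway was read from 95 genes in 8 lists, of which 74 had a count in Ribo-seq. None of the 12 genes tested between genotypes at GV and none of the 10 at MII was called by edgeR (0.00% and 0.191% over all genes). From GV to MII, 4 of 16 tested genes were called over the 11 libraries, 1 higher and 3 lower, and 10 of 15 in the 8 libraries, 4 higher and 6 lower, against 33.2% and 64.3% over all genes tested.

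Among receptors and G proteins (13 genes), 1 of 5 tested genes fell over the 11 libraries: Gnas, which encodes the Gs alpha subunit between receptor and cyclase, with a log2 change of -2.53 ± 1.04 (edgeR adjusted p = 0.0462). In the 8 libraries Gnas changed by -2.34 ± 0.30, while Rgs2, a regulator of G protein signaling, and Gnai3, an inhibitory G alpha subunit, rose by 1.57 ± 0.32 and 1.41 ± 0.37 (edgeR adjusted p of 0.000233 and 0.00229). Among adenylyl cyclases (9 genes), only Adcy2 was tested. It had 226 CPM as a mean over 10 libraries against 10.1 for Adcy3, and it rose by 1.45 ± 0.35 in the 8 libraries (edgeR adjusted p = 0.00106) but did not pass over 11 (1.55 ± 0.81, edgeR adjusted p = 0.117). The next cyclase, Adcy9, averaged 25.7 CPM.

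Of 13 PKA anchors, which tether the kinase within the cell, 1 of 5 tested fell over the 11 libraries, Akap1, a mitochondrial anchor, with a log2 change of -3.71 ± 0.91 (edgeR adjusted p = 0.00112). In the 8 libraries 3 of 5 fell: Akap1 (-3.78 ± 0.45), Akap9 (-1.47 ± 0.43) and Akap12 (-0.83 ± 0.28) (edgeR adjusted p of 2.36e-07, 0.00505 and 0.0135). Of the 6 regulators of M-phase promoting factor below PKA, 2 were tested and both were called in either fit. Cdc25b, the phosphatase that activates CDK1 at the resumption of meiosis, fell, with log2 changes of -4.19 ± 0.87 over 11 libraries and -4.92 ± 0.65 in the 8, and Wee2, the oocyte kinase that inhibits CDK1, rose by 2.92 ± 0.99 and 2.65 ± 0.36 (edgeR adjusted p from 8.73e-07 to 0.0172).

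Among connexins other than Gja4 (18 genes), Gja1, connexin 43 of the granulosa and cumulus cells, was not called, with log2 changes of -0.40 ± 1.07 over the 11 libraries and 0.38 ± 0.30 in the 8 (edgeR adjusted p of 0.782 and 0.270). Of 18 other phosphodiesterases, 1 was tested over the 11 libraries and was not called (Pde5a, a cGMP phosphodiesterase, -0.50 ± 0.85), and Pde8a, a cAMP phosphodiesterase, had 0 to 10 counts. The 7 other PKA subunits and inhibitors had 1 tested gene and no call: Prkar2a, the RII alpha subunit, had 40 counts in WT MII replicate 2 and 1 to 7 in each of the other 10 libraries (log2 change 1.63 ± 0.90, edgeR adjusted p = 0.139), and Prkacb had 0 to 18. None of the 11 genes of the cGMP and KIT ligand list reached the filter, with Kitl, the ligand of Kit, at 0 to 16 counts and Impdh1, an enzyme of guanine nucleotide synthesis, at 0 to 10.

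Kit had the highest mean CPM of the 10 genes over the 10 libraries other than WT MII replicate 2, and the genes whose profile was most like it were Fbxw19, Oas1e and Pramef12. Pearson's r of log2(CPM + 10) over these 10 libraries was 0.974, 0.971 and 0.971 among 2995 genes with a mean of 50 CPM or more. Over the 8 libraries without Nat10-ZcKO GV replicates 1 and 2, r was 0.913, 0.914 and 0.903, and the genes ranked 207, 196 and 271. The libraries share their depth and their oocyte marker share in these profiles, so the values are a description.

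In acRIP-seq of WT GV oocytes, Kit had the highest anti-ac4C over anti-IgG ratio among those of the 10 genes with counts in both libraries. Kit had 608 counts in the anti-ac4C library (970997 counts) and 22 in the anti-IgG library (116232 counts). Its CPM ratio was 3.31 (exact 95% interval 2.16 to 5.32). The intervals of Prkar2b and Npr2, which had few counts, reached above this ratio (to 12.05 and 7.10). Gja4 had 840 and 63 counts, a ratio of 1.60 (1.23 to 2.10). Pde3a had 297 and 63 counts, a ratio of 0.564 (0.429 to 0.753), and so was lower in the anti-ac4C library. The interval of Kit lay above 2, that of Pde3a below 1, and that of Gja4 on both sides of 2.

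Gpr3 had 104 anti-ac4C counts and no anti-IgG count, and its exact 95% interval, of the kind used for the other genes, starts at 3.32. Setting the anti-IgG level to a limit of 3 counts gives 4.15, which leaves out the counting error of the 104. Prkar1a (141 and 17 counts, ratio 0.993), Prkaca (42 and 7, ratio 0.718), Prkar2b (23 and 2, ratio 1.38) and Npr2 (13 and 2, ratio 0.778) had intervals that took in 1, at 0.598 to 1.75, 0.320 to 1.89, 0.340 to 12.05 and 0.176 to 7.10. Adcy3 had 8 and 0 counts, too few for a ratio, and Gpr12 had none in either library. Of the 8 genes with 10 or more counts, Kit and Gpr3 thus had a ratio above 2, against 43.9% of all 8752 genes with 10 or more counts over both libraries. That share counts each gene without an anti-IgG count as above 2, also at low counts in the shallower anti-IgG library. At 50 or more counts, 1533 of 4680 genes were above 2. The median ratio over the 4680 genes with 50 or more counts was 1.27. With 1 library on each side these ratios have no replicate check, and the intervals cover counting error only.

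**Figure D5:**
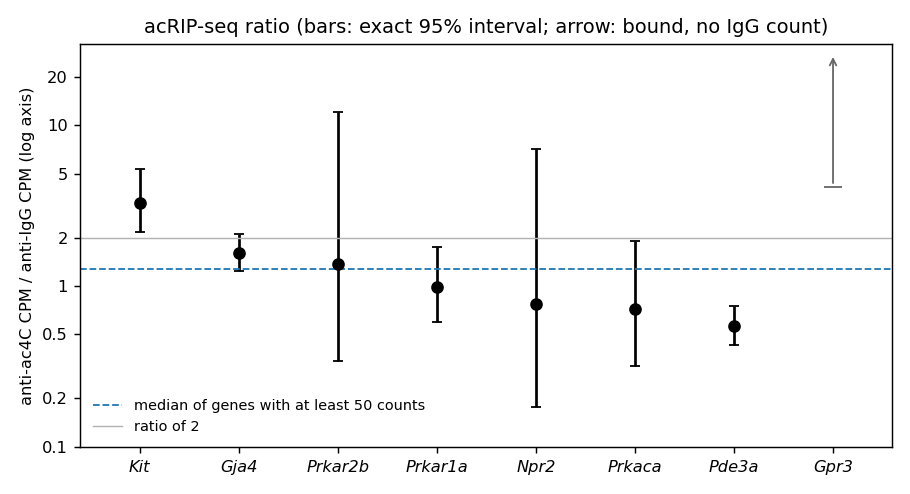
Ratio of anti-ac4C to anti-IgG CPM in WT GV oocytes (log axis, exact 95% intervals from counts, 1 library each). The arrow starts at 4.15 for Gpr3, which had no anti-IgG count and is set against a limit of 3 counts. The exact 95% interval of Gpr3 starts lower, at 3.32. Kit lies at 3.31, above the line at 2, Pde3a at 0.564, and Gja4 at 1.60, near the median of 1.27 over genes with at least 50 counts (dashed).

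ac4C forms on cytidines, so the cytidine content of the coding sequences is given beside these ratios. Gja4 had 30.9% C, Gpr3 32.1% and Gpr12 32.6%, at the 87.3, 91.8 and 93.4 percentiles of 21647 genes, where the median was 25.7%. Pde3a (28.5%), Adcy3 (28.1%) and Npr2 (27.1%) were also above that median, Prkaca (25.7%) was at it, and Kit (25.0%), Prkar2b (21.8%) and Prkar1a (21.5%) were below it. Whether cytidine content goes with the ratio was not tested.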

How the data were processed

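The authors deposited whole-number counts per gene, not normalized, 1 file per library: RPFs on the coding sequence for 11 Ribo-seq libraries and fragments per gene for 2 acRIP-seq libraries. The submitters' processing notes name cutadapt, STAR, HTSeq and mm10; versions and strand setting are not given in the sources used here. Rows naming no gene in the acRIP-seq files were left out (mostly reads outside any feature, 46.7% of those listed for anti-IgG and 17.1% for anti-ac4C). Of 22442 identifiers, 22399 matched GENCODE M21 on GRCm38 (mm10). CPM used library totals and TPM the union of coding segments.

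Counts were tested with edgeR 4.0.16 in R 4.3.3 (filterByExpr, TMM, glmQLFit, glmQLFTest, Benjamini-Hochberg, adjusted p-value under 0.05): genotype at GV (6 libraries), genotype at MII (5), and stage with genotype as a covariate (11). TMM factors were 0.580 to 1.61, and 11.8 for WT MII replicate 2. The SE of an edgeR log2 change was not fitted. It was derived as the absolute log2 change over the square root of the quasi-likelihood F. The tests were tried on simulated data. Intervals are exact at 95% (scipy 1.17.1), and a count of 0 allows 3 counts, or 10.7 to 623 CPM. DESeq2 1.42.0, other scalings and filters, left-out libraries and a replicate block were alternatives.

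The members and lists were chosen with earlier results of these data known. Named genes are the 10 members; from each list the genes called, otherwise the 2 of highest mean CPM; the 5 genes of most counts in WT MII replicate 2; and the 3 genes most like the member of highest mean CPM. Marker lists were oocyte, granulosa and cumulus, endothelial (0% to 0.0354% of counts) and adipocyte. Single markers, and the genes seen in GV libraries only, were named after their values were seen. Results for some items that this rule names are not reported here.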

Additional observations from a re-analysis of the deposited data

How the results depend on the processing

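Without WT MII replicate 2 or Nat10-ZcKO GV replicates 1 and 2, or all 3 for stage, 7 of 17 member changes turned direction. Depth limited Gpr3, Gpr12, Adcy3 and Npr2 to detection or to limits set by 3 counts. Of 242 alternative values of the tested members, 206 kept direction and side of the threshold, 22 turned direction and 16 newly passed. Of these 16, 2 were among the 22, and the cause was not tested. The 206 include the DESeq2 values at MII of Pde3a, Prkaca, Prkar1a, Prkar2b and Kit, which have no adjusted p.

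At GV, where edgeR called no gene (93 at an unadjusted p under 0.05), DESeq2 called 3, no filter on low counts 41, one fit of all 11 libraries 23, leaving out Nat10-ZcKO GV replicates 1 and 2 called 78, and leaving out single libraries 0 to 380. At MII (4 called), DESeq2 called 15, library size only 44, no filter 0 (262 at an unadjusted p under 0.05), at least 10 counts in 3 libraries 15, all 11 libraries 19, and single libraries left out 0 to 1451. For stage (993), DESeq2 called 1802, no filter 264, the 8 libraries 1989, WT libraries only 6, Nat10-ZcKO libraries only 368, and single libraries left out 224 to 1437. The 380 calls came without Nat10-ZcKO GV replicate 3, the 1451 and the 224 without WT MII replicate 1; stage also gave 482 without Nat10-ZcKO GV replicate 3, 578 and 586 without Nat10-ZcKO MII replicates 1 and 3, and MII gave 0 without each Nat10-ZcKO MII library in turn. The interaction called 31 of 3863 genes, or 48 with library size only, an alternative added after the data were seen. Genes above an acRIP-seq ratio of 2, including those with no anti-IgG count, numbered 3844. They were 1533 at 50 or more counts, 6337 at 1 or more, and 439 by the lower interval bound.

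Directions turned at GV for Prkar1a (-0.090 without a filter, -0.10 without Nat10-ZcKO GV replicates 1 and 2, single libraries left out -0.16 to 0.56), Prkar2b (-1.17) and Kit (0.12), the last 2 without those replicates. At MII they turned for Gja4 (single libraries left out -7.35 to 0.32), Prkaca (0.052 in all 11 libraries, -0.84 to 6.15), Prkar1a (0.38 without a filter, 0.44 in all 11 libraries, -0.53 to 7.24), Prkar2b (-0.10 at 10 counts in 3 libraries, -0.59 to 6.96) and Kit (-0.0040 with library size only, -0.077 at 10 counts in 3 libraries, -0.23 to 7.88). For stage they turned for Gja4 (-1.42 in the 8 libraries, -0.80 in Nat10-ZcKO libraries, single libraries left out -0.71 to 2.80) and Pde3a (-0.020 in WT libraries).

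The labels number replicates alike in each group, but deviations from the group means of same-numbered libraries correlated at only -0.07 to 0.10 (median 0.0074). Between genotypes at the same stage, r was 0.0040 to 0.10 (median 0.078) for same-numbered libraries. It was -0.10 to 0.037 (median -0.029) for the other pairs there. All these values were small, and the numbers were not taken as pairs. With the number as a replicate block, edgeR called 0 genes at GV (35 at an unadjusted p under 0.05), 0 at MII (6) and 503 for stage, and Prkar1a at MII was at 0.60; no member was called.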
